A study of Mus musculus with 8 samples.

Results

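The genes described here encode the cytoskeleton of neurons: the neurofilament subunits Nefl, Nefm, Nefh and Ina, the related filament protein Prph, the microtubule-associated proteins Map1a, Map1b and Map2, and the tubulin-binding stathmins Stmn2 and Stmn3. They were taken as the probe sets whose platform annotation named 1 gene alone with one of these 10 symbols, which gave 24 probe sets for all 10 genes, out of 45101 probe sets and 18194 genes on the Affymetrix Mouse Genome 430 2.0 array. Signals came from 8 CBA/CaJ mice, an inbred strain with good hearing, and all 8 formed 1 group of normal cochlea. Every mouse was killed with urethane at 300 mg/kg and perfused with saline, and the ears of each mouse were pooled on 1 array. Bone was removed, which left spiral ligament, organ of Corti and modiolus, and the labels gave no sex, age or hybridization batch. With 1 group there was no contrast between conditions, so the data describe levels and their variation between mice. The mouse numbers are names only.

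The cell bodies of the cochlear neurons form the spiral ganglion in the modiolus, and their axons run to the brain stem in the auditory nerve. Large myelinated axons are packed with neurofilaments, built from Nefl with Nefm and Nefh, whose long phosphorylated tails set the spacing of the filaments and with it the axon's calibre. Microtubules serve as the tracks of axonal transport, and the MAP and stathmin proteins stabilise or destabilise them. Neurofilament proteins are made chiefly by neurons, while microtubule proteins of the general kind are found in every cell.

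Of the 10 genes 9 were detected, meaning that the signal of the brightest probe set lay above the background threshold of the array in all 8 mice; 64.8% of all genes met this. The threshold of an array was the signal that 95% of its olfactory and vomeronasal receptor probe sets did not exceed, and it ranged from 38.1 to 63.4. Prph was above it in 4 mice only. Signals are in arbitrary units and depend on the probes, so only mice are compared, never one gene's level with another's. Log2 signals of any pair of arrays correlated at 0.945 to 0.960 across probe sets, and the 3′ to 5′ signal ratio of the Gapdh control, a measure of RNA integrity, was 1.47 ± 0.0537 (SD, n = 8).

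**Figure D1:**
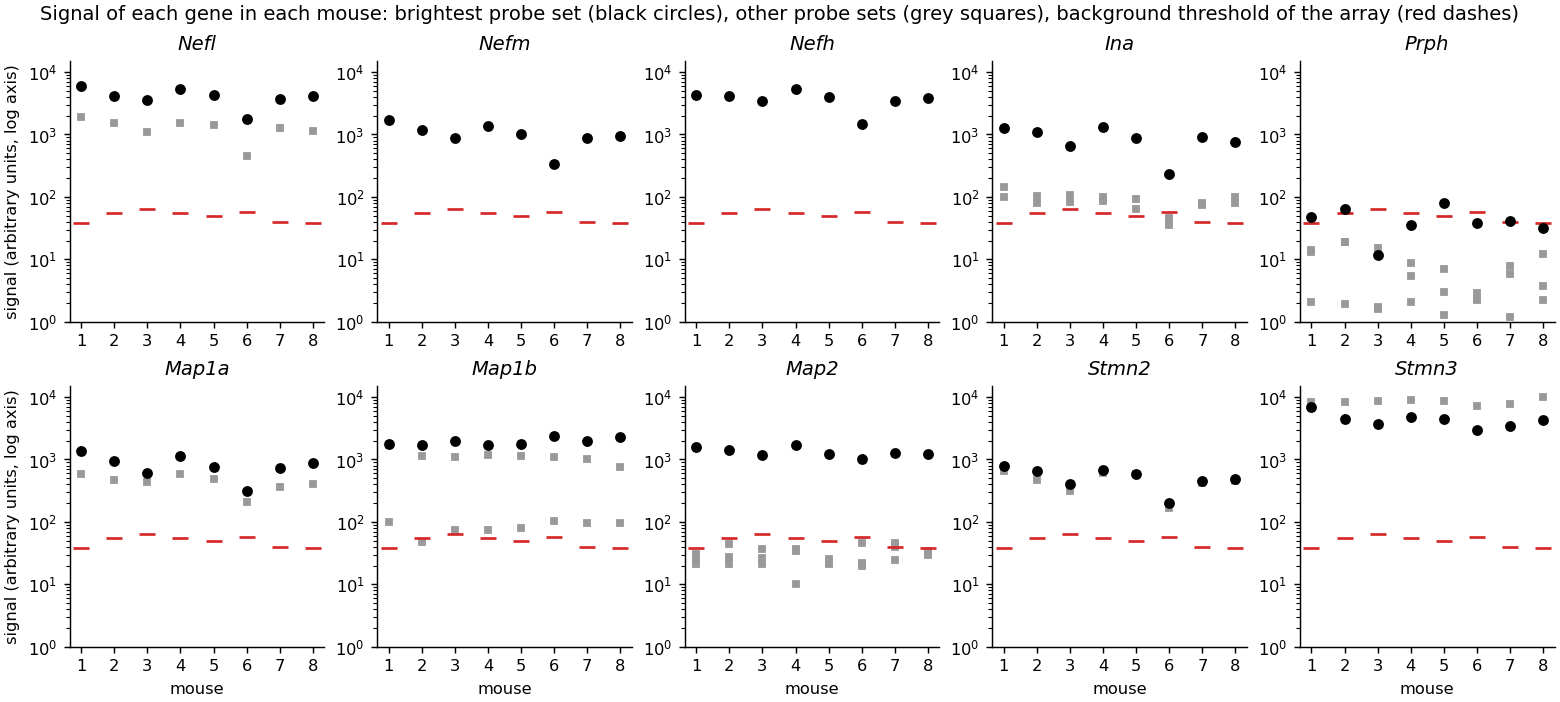
Signal of each gene (vertical log axis, arbitrary units) in each of the 8 mice (horizontal axis), with the brightest probe set as black circles, other probe sets as grey squares and the array's background threshold as red dashes. Nefl, Nefm, Nefh, Ina, Map1a and Stmn2 show their lowest black circle in mouse 6, while the black circle of Map1b is highest there and those of Prph lie near the threshold.

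The neurofilament triplet was low in mouse 6 and high in mice 1 and 4. Nefl, the light subunit on which the filaments assemble, measured 6059, 4179, 3636, 5363, 4251, 1741, 3685 and 4101 in mice 1 to 8, a mean of 4127 ± 1277 (SD, n = 8). The signal in mouse 6 lay apart from those in the other 7 mice, which spanned 3636 to 6059, and the median mouse stood 2.38-fold above it. Nefm, the medium subunit, measured 1707, 1186, 875, 1364, 1025, 333, 887 and 952 in the same order, a mean of 1041 ± 402 (SD, n = 8). The range from mouse 6 to mouse 1 was thus 5.12-fold for Nefm and 3.48-fold for Nefl. Nefh, the heavy subunit, measured 4345, 4171, 3429, 5359.5, 4036, 1497, 3504 and 3907, a mean of 3781 ± 1099 (SD, n = 8). Its highest value was in mouse 4 and not in mouse 1. A second probe set of Nefl gave 459 in mouse 6 and 1115 to 1904 in the others, and Nefm and Nefh had no second probe set. In the reference annotation Nefl and Nefm are neighbours on chromosome 14 with 0 protein-coding genes between them.

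Ina encodes alpha-internexin, a filament protein that joins the triplet in many neurons, and it had the widest spread of the 9 detected genes. Its signals in mice 1 to 8 were 1265, 1099.5, 664, 1321, 892, 235, 916 and 769.7, a mean of 895 ± 352 (SD, n = 8). Mouse 6 was 1.78 below the mean of the 8 mice on the log2 scale, the second-lowest deviation of that mouse among the 11784 detected genes. Ina's other probe sets were much dimmer, with means of 93.2 and 78.4, and each was above background in 7 of 8 mice, mouse 6 being the exception at 46.2 and 35.4. Prph encodes peripherin, which in the adult cochlea marks the sparse type II neurons that contact outer hair cells. Its brightest probe set measured 48.3, 64.9, 11.6, 35.0, 79.7, 38.3, 40.4 and 32.1 in mice 1 to 8. The values in mice 1, 2, 5 and 7 were above the threshold of their array, and the range of all 8 overlapped the range of the thresholds. The 3 other probe sets of Prph stayed below background in every mouse, with means of 8.39, 1.85 and 9.19. Levels of Prph are therefore not compared between mice.

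Among the microtubule-associated genes Map1a followed the neurofilaments, Map2 did so with a smaller range, and Map1b did not. Map1a, whose product binds microtubules of mature neurons and which is known in mice as a modifier of hearing loss in the tubby mutant, measured 1343, 958, 617, 1126, 770.1, 311, 740.3 and 866 in mice 1 to 8 (842 ± 315, SD, n = 8). A second probe set ran from 205 in mouse 6 to 577 in mouse 1. Map2, a protein of dendrites and cell bodies, measured 1573, 1404, 1201, 1711, 1236, 1019, 1291 and 1228 (1333 ± 222, SD, n = 8). Mouse 6 was again the lowest, but the range was only 1.68-fold. The 3 other probe sets of Map2 had means of 24.0, 27.7 and 35.3, of which the last was above background in 1 mouse and the others in none.

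Map1b, a protein of growing axons that is also made outside neurons, was highest in the mouse where the others were lowest. Its brightest probe set measured 1787, 1728, 1963, 1729, 1768, 2388, 1954 and 2315 in mice 1 to 8 (1954 ± 263, SD, n = 8). Mouse 6 exceeded the 7 others, though mouse 8 came close. A second probe set, well above background in every mouse, gave a different order, with 1711 in mouse 1, 1076 in mouse 6 and 754 in mouse 8. The probe sets of Map1b ran in opposite directions over the mice (r = -0.61, rho = -0.67, n = 8), and their agreement did not pass the exact one-sided permutation test (p = 0.948, adjusted p = 0.991; for rho p = 0.965). Statements on Map1b thus depend on the probe set. Neither probe set had its lowest value in mouse 6, and the dimmest one was highest there at 105.

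The stathmins bind tubulin and promote the disassembly of microtubules, and Stmn2 and Stmn3 are members found in neurons. Stmn2 measured 779, 656, 406, 682, 582, 200.4, 459.5 and 488 in mice 1 to 8 (532 ± 183, SD, n = 8), and its second probe set gave 169 in mouse 6 and 308 to 649.8 in the others. Both probe sets had their lowest value in mouse 6. Stmn3 measured 6939.5, 4390.3, 3756, 4855, 4419.7, 2934, 3492 and 4341 (4391 ± 1198, SD, n = 8). Here mouse 1 was the highest by a wide margin, and mouse 6 was the lowest by a smaller margin. A brighter probe set of Stmn3, of a design that can bind other transcripts as well, ranged over 1.41-fold only, from 7089 in mouse 6 to 9972 in mouse 8.

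**Figure D2:**
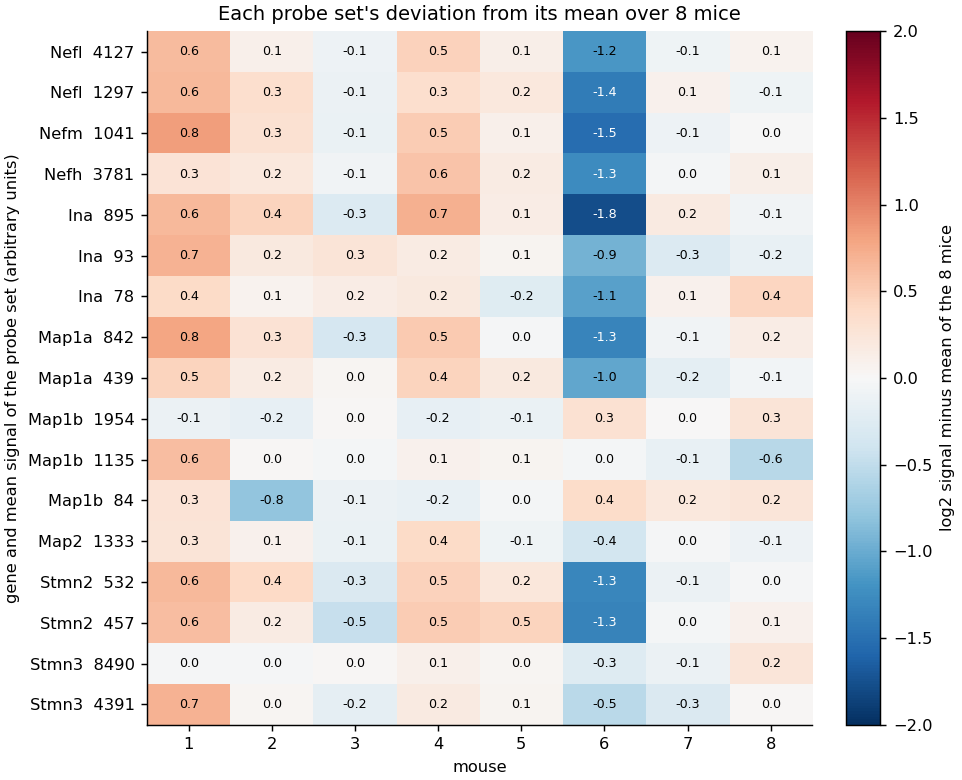
Colour and number give the log2 signal of a probe set in a mouse minus its mean over the 8 mice, for the 17 probe sets above background in at least 7 mice (rows, with the gene and the mean signal). Mouse 6 is blue in every row of the neurofilament genes, Map1a and Stmn2, and the 3 rows of Map1b differ from one another.

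Promoter sequence was on hand for 6 of the 10 genes, from RefSeq on build GRCm38.p6. Shown are the 120 bases before the annotated start of 4 genes: Ina, Map1a, Map1b and Prph. By their brightest probe sets, Ina and Map1a were highest in mice 1 and 4 and lowest in mice 6 and 3. Map1b was highest in mouse 6 by its brightest probe set, and Prph was near background. Capitals mark GGGCGG, the GC box bound by Sp1, and TATAAA, the TATA box, on either strand.
Ina, chr19:47014561-47014680, plus strand: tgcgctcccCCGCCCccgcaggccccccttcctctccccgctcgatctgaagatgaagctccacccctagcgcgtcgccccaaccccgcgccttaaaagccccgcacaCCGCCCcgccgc
Map1a, chr2:121289482-121289601, plus strand: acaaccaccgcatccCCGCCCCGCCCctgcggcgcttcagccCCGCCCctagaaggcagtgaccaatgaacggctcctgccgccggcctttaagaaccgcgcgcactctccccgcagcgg
Map1b, chr13:99516603-99516722, minus strand: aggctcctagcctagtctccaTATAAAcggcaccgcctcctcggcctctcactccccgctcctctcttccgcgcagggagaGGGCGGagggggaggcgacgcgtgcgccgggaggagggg
Prph, chr15:99055054-99055173, plus strand: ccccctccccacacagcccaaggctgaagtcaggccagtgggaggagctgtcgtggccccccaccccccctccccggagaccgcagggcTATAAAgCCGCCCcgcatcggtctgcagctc
In the 250 bases before the start, GGGCGG occurred 2 times in Ina, 4 times in Map1a (a pair of them overlapping by their end bases), 5 times in Map2, and once each in Map1b and Prph, and it did not occur in Stmn3. It was found in 32.7% of 32851 mouse promoters in a window of the same length. TATAAA occurred at position -31 in Prph and -99 in Map1b, counted from the annotated start, and in 12.4% of the promoters. In the windows of Ina, Map1a, Map2 and Stmn3 these letters were not found. The GC content was 70.8% in Ina, 66.0% in Map1a, 66.4% in Map1b, 65.2% in Prph, 81.2% in Map2 and 48.8% in Stmn3, against a median of 52.4% over all promoters.

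Separate probe sets of a gene are separate readings on the same array, and they could be compared for 5 of the genes. Over 5176 genes with a pair of detected probe sets 7.53% agreed, by an exact one-sided permutation test of Pearson's r over the 8 mice with Benjamini-Hochberg adjustment over all of these genes at 0.05. Of the 5 genes 3 passed. Stmn2 had r = 0.97 (n = 8, exact p = 4.46e-04, adjusted p = 0.0210) and rho = 0.98 (exact p = 1.98e-04, adjusted p = 0.0228). Nefl had r = 0.97 (n = 8, exact p = 7.19e-04, adjusted p = 0.0255) and rho = 0.90 (exact p = 0.00228, adjusted p = 0.0534). Map1a had r = 0.94 (n = 8, exact p = 0.00285, adjusted p = 0.0430) and rho = 0.83 (exact p = 0.00769, adjusted p = 0.0925). By rank only Stmn2 passed. Without mice 1 and 6, the farthest from the median of each gene, r was 0.87 for Stmn2, 0.69 for Nefl and 0.65 for Map1a, so the agreement of Nefl and Map1a rests in part on these mice. Stmn3 did not pass (r = 0.48, n = 8, exact p = 0.105, adjusted p = 0.284; rho = 0.52, exact p = 0.0983), and Map1b did not either.

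The 9 detected genes differed more between mice than most genes did. Their median SD was 0.55 on the log2 scale, against 0.18 over the 11784 detected genes, and 7 of the 9 had an SD over 0.3, as 16.2% of detected genes did. SDs ran from 0.79 for Ina, 0.70 for Nefm, 0.64 for Map1a, 0.62 for Stmn2, 0.55 for Nefh and 0.54 for Nefl to 0.37 for Stmn3, 0.24 for Map2 and 0.19 for Map1b. The SD of Ina was exceeded by that of only 79 detected genes, whereas Map1b lay in the middle, with 51.1% of detected genes below it. Much of the spread came from 1 mouse: without mouse 6 the median SD was 0.32, and the SDs of Ina, Nefm, Nefl and Nefh were 0.37, 0.36, 0.28 and 0.22.

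Of the 9 genes, 8 had their lowest value in mouse 6, as did 12.3% of detected genes, and the exception was Map1b. In 6 genes mouse 6 lay more than 1 below the mean of the 8 mice on the log2 scale (Ina -1.78, Nefm -1.52, Map1a -1.33, Stmn2 -1.31, Nefh -1.26, Nefl -1.17), a depth that 0.798% of detected genes reached. Stmn3 was at -0.54, Map2 at -0.37 and Map1b at 0.30. At the high end 5 genes had their highest value in mouse 1 (33.4% of detected genes) and 3 in mouse 4 (10.8% of detected genes). Mice 1 and 4 were the 2 highest mice for 8 of the 9 genes, as for 5.61% of detected genes. For 7 of the 9 mouse 6 was the lowest and mouse 3 the second lowest, as for 3.62% of detected genes. Both patterns were read from the same values that are counted here, and these genes rose and fell together. The counts are a description and not a test. Apart from Map1b, the order of the mice by the brightest probe sets was much alike from gene to gene. Without mouse 6, r over the 28 pairs of these genes still ranged from 0.60 to 0.97. Other probe sets gave a partly different order. The second one of Nefl had mouse 2 (1538) above mouse 4 (1530.1), and that of Map1a had mouse 7 (368) below mouse 3 (432). The brighter _x_at probe set of Stmn3 was highest in mouse 8. Each of these was still lowest in mouse 6.

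**Figure D3:**
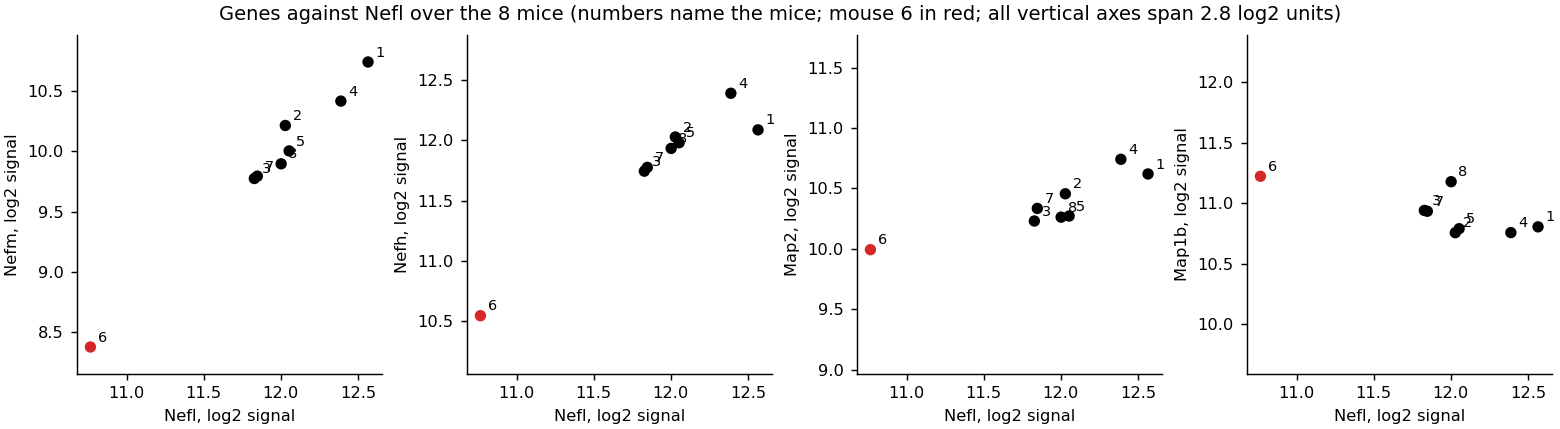
Log2 signals of Nefm, Nefh, Map2 and Map1b (vertical axes, each spanning 2.8 log2 units) against Nefl (horizontal axis), 1 point for each of the 8 mice with mouse 6 in red. Nefm, Nefh and Map2 are higher where Nefl is higher, also among the 7 black points. Map1b, by its brightest probe set only, is higher where Nefl is lower, with r = -0.74 over all points and -0.46 over the black ones.

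Each of the 9 genes was compared across mice with every detected gene, 106011 pairs in all, by an exact two-sided permutation test of Pearson's r with Benjamini-Hochberg adjustment over all pairs. No pair passed at 0.05, so 0% were called in either direction; at an unadjusted p under 0.05 there were 10254 pairs (9.67%), and by Spearman's rho 0 pairs passed and 11071 had an unadjusted p under 0.05. The smallest adjusted p was 0.0730, and with 8 mice no p can be below 2.48e-05. A lone pair at that floor could not pass the adjustment over 106011 pairs, so the lack of calls is no evidence against covariation. The pair of these genes with the smallest p was Nefm with Stmn2 (r = 0.99, n = 8, exact p = 2.48e-05, the smallest possible, adjusted p = 0.0730; rho = 1.0, exact p = 4.96e-05, adjusted p = 0.125), with r = 0.94 without mice 1 and 6. Nefl and Nefm had r = 0.99 (n = 8, exact p = 1.24e-04, adjusted p = 0.0871) and rho = 0.98 (exact p = 3.97e-04, adjusted p = 0.146), and r = 0.92 without mice 1 and 6. The log2 ratio of Nefl to Nefm had an SD of 0.18 over the mice, against 0.54 and 0.70 for the genes themselves. Over the 28 pairs that leave out Map1b, r ranged from 0.73 to 0.99 with a median of 0.94, beside a median of 0.06 over all 106011 pairs. Without mouse 6 these 28 ranged from 0.60 to 0.97 with a median of 0.88. The 8 pairs with Map1b ranged from -0.82 to -0.61, by its brightest probe set. Without mouse 6 these 8 were weaker, from -0.69 with Ina to -0.36 with Stmn3.

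The genes whose signals were most like the mean of the 9, by Pearson's r over the 8 mice and as a description without a test, were Rufy3, Syp, Hapln4, Vamp1, Slc17a7, Scn1a, Gm13629, Cplx1, Elavl4 and Resp18, with r from 0.988 to 0.992. Several act at synapses: Syp is a membrane protein of synaptic vesicles, Vamp1 and Cplx1 belong to the vesicle fusion machinery, and Slc17a7 loads vesicles with glutamate. Scn1a is a sodium channel and Elavl4 an RNA-binding protein of neurons. All 10 were lowest in mouse 6; Syp measured 262 there and 508 to 1192 in the other mice, and Scn1a 356 and 758 to 1372. Taken singly, Map1a was nearest to Syp (r = 0.998), Stmn2 to Elavl4 (0.996), Ina to Cplx1 (0.995), Nefl and Nefm to each other (0.992), and Nefh to Fgf12 (0.990). Stmn3 was nearest to Pmp22 (0.984), a myelin protein gene of Schwann cells, and Map2 to Gpr89 (0.984). Map1b was nearest to Slc26a11 (0.977), which was highest in mouse 6.

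Most neuronal genes outside the cytoskeleton were also lowest in mouse 6. Of 28 measured genes of a list of neuronal genes without cytoskeletal function, 26 were detected. Of these, 20 were lowest in mouse 6 (12.3% of all detected genes) and 12 highest in mouse 1 (33.4% of all detected genes). The 6 that were not lowest there were Syt1, Elavl3, Prox1, Gata3 and the neurotrophin receptor genes Ntrk2 and Ntrk3. Syt1 measured 87.7 in mouse 6 and 73.9 to 116 in the others, and Elavl3 159.9 and 148 to 242. Ntrk2 measured 987 in mouse 6 and 799 to 1211 in the others, and Ntrk3 198 and 132 to 242. The brightest were Snap25, a protein of vesicle fusion (4960.5 in mouse 6 and 7257 to 9451 in the others), the enolase Eno2 (4402 and 5983 to 7864), the calcium-binding parvalbumin Pvalb (3142 and 4743 to 6490.2) and Calb2 (2071 and 3104 to 5177). The most variable was the synaptic vesicle protein gene Syn1 (85.6 and 211 to 395). Syp, Scn1a and Cplx1, named above, belong to the same list. Their median SD was 0.41, and their mean log2 deviation in mice 1 to 8 was 0.40, 0.16, -0.21, 0.30, 0.08, -0.82, -0.03 and 0.11. The 9 cytoskeleton genes averaged 0.52, 0.19, -0.17, 0.40, 0.06, -1.0, -0.06 and 0.05. In bulk tissue, fewer neurons in a sample and less RNA per neuron cannot be told apart.

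When the mean deviation of the 26 neuronal genes was subtracted from each cytoskeleton gene, the median SD of the 9 went from 0.55 to 0.25, while that of all detected genes went from 0.18 to 0.41, a description without a test. The SD after subtraction was 0.18 for Nefl, 0.20 for Stmn3, 0.21 for Nefh and Map2, 0.25 for Stmn2, 0.27 for Map1a, 0.33 for Nefm and 0.43 for Ina. Ina and Nefm were further down in mouse 6 than the mean of the 26 neuronal genes, by 0.96 and 0.70. Map2 and Stmn3 were less far down, by 0.45 and 0.28 on the log2 scale. The 26 genes differed among themselves in mouse 6, where 11 lay more than 1 below their mean and 3 above it. Thy1 (-1.54) and Syn1 (-1.51) were about as far down there as Nefm (-1.52), while Ina (-1.78) was further down than all 26. By its brightest probe set, Map1b rose instead in SD, to 0.53 after subtraction against 0.19 before.

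**Figure D4:**
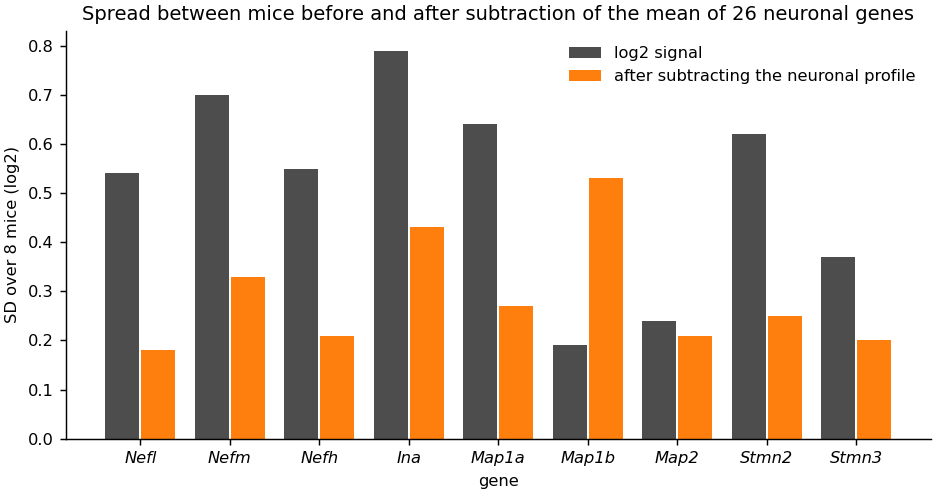
SD over the 8 mice on the log2 scale (vertical axis from 0) for each of the 9 detected genes, of the log2 signal (grey) and after the mean deviation of 26 neuronal genes was subtracted (orange). The orange bar is lower than the grey one for every gene but Map1b, where it rises from 0.19 to 0.53.

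Other genes of the neuronal cytoskeleton, from a list of tubulin isotypes, microtubule-binding proteins and growth cone proteins, were split. Of 23 measured genes 18 were detected and 5 of these were lowest in mouse 6 (12.3% of all detected genes), with a median SD of 0.14. The neuron-specific tubulin gene Tubb3 was the most variable, at 844, 545, 278, 499, 454, 176, 373 and 416 in mice 1 to 8, with the low end in mouse 6 and the high end in mouse 1. The 4 brightest were steady by comparison: Tuba4a (9288 ± 744, SD, n = 8), Dpysl2 (9186 ± 739), Stmn1 (8448 ± 833) and Dclk1 (7654 ± 484), none with its lowest value in mouse 6. Stmn1, the widely expressed stathmin, thus differed from Stmn2 in the order of the mice, and Mapt, which encodes tau, ranged from 348 to 477 with mouse 6 at 383. Of the axonal transport motors 16 of 17 measured genes were detected and 8 were lowest in mouse 6, beside the same 12.3%, with a median SD of 0.24. The neuronal kinesin heavy chains Kif5a (855 in mouse 6 and 1156 to 2342 in the others) and Kif5c (837 and 1271 to 2154) were among these, whereas the widely expressed Kif5b measured 3928 in mouse 6 and 2251 to 4452 elsewhere.

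General microtubule genes, other intermediate filaments and neurofilament kinases mostly did not follow the neurofilaments. The share of all detected genes that were lowest in mouse 6, for comparison with the counts below, was 12.3%. All 22 measured general microtubule genes were detected, 5 were lowest in mouse 6, and their median SD was 0.17; Tuba1a measured 11297 ± 794 (SD, n = 8). Of 15 other intermediate filament and linker genes 13 were detected and 2 were lowest in mouse 6. Vim, the filament protein of fibrocytes and glia, measured 6354 ± 442 (SD, n = 8). Gfap, the filament of astrocytes and some other glia, was the most variable, at 805 in mouse 1, 1292 in mouse 6 and 122 to 414 in the others. Of 10 genes of neurofilament kinases and turnover, all detected, 2 were lowest in mouse 6: Mapk10, a stress kinase of neurons (155 and 279.9 to 532), and Cdk5r2, an activator of the neurofilament kinase Cdk5 (83.9 and 128 to 218). Gsk3b (5203 ± 386) and Mapk9 (3111 ± 177, SD, n = 8) varied little.

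Marker genes of other cells were examined beside these values, with 12.3% of all detected genes lowest in mouse 6. Of 14 measured Schwann cell and myelin genes 11 were detected, 1 of them lowest in mouse 6, with a median deviation of -0.04 in that mouse and a summed signal of 40998 (mouse 7) to 49706 (mouse 1). Mbp was 9286 in mouse 6 and 9488 in mouse 1, against 6029.8 to 7971 in the others, and Pmp22 ran from 6453 in mouse 6 to 9086 in mouse 1. Of 20 central nervous system genes 8 were detected and 7 were above background in no mouse, and their summed signal ran from 7160.5 in mouse 5 to 10554 in mouse 1. In mouse 6 the median log2 deviation of the 8 detected genes was 0.17. Zic2, Cbln1 and Pcp2, among the brightest of them, were at 0.06, 0.04 and -0.03 there. The oligodendrocyte gene Mobp measured 2331 in mouse 1 and 2262 in mouse 6, against 48.9 to 201 in the others. Mog, above background in 2 mice only, measured 314 and 356 against 2.50 to 28.9. Mobp and Mog were thus high in mouse 6, where the neurofilament signals were lowest, and in mouse 1, where Nefl and Nefm were highest, but not in mouse 4, where Nefh and Ina were highest. Their part in the result was not tested. Of 11 measured hair cell genes 8 were detected and 0 were lowest in mouse 6, with a summed signal of 6087 to 7132, and Pou4f3, Atoh1 and Cdh23 were above background in no mouse. The ratio of 3′ to 5′ signal was lowest in mouse 6 for both Gapdh (1.39, with up to 1.54 in the others) and beta-actin (1.86, with up to 2.23), and its part in the result was not tested.

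**Figure D5:**
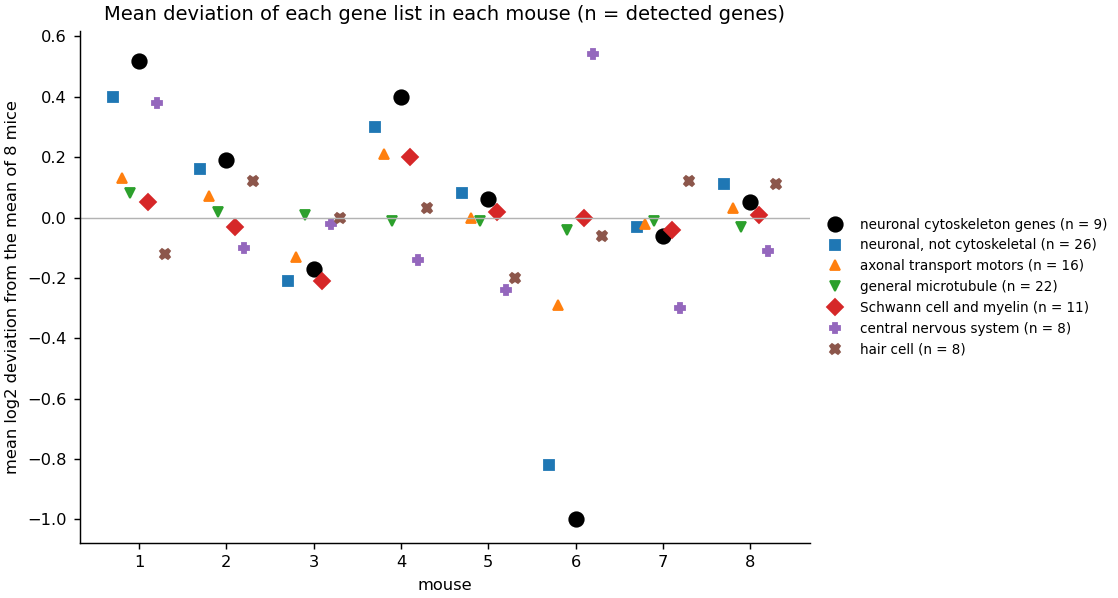
Mean log2 deviation from the mean of the 8 mice (vertical axis) of the detected genes of each list in each mouse (horizontal axis; points of a mouse are set side by side). In mouse 6 the neuronal cytoskeleton genes (-1.0) and the other neuronal genes (-0.82) lie far below 0. The Schwann cell genes (0.00), hair cell genes (-0.06) and general microtubule genes (-0.04) do not. The central nervous system genes lie at 0.54 there, a mean raised by Mobp (3.15), while their median is 0.17.

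Markers of the kinds of neuron were measured in part. Calb2, Calb1, Pou4f1 and Lypd1, used to tell subtypes of the type I neurons that contact inner hair cells, were all detected, as was Runx1. Of the 6 detected genes of this list 3 were lowest in mouse 6 (12.3% of all detected genes), namely Calb2, Calb1 and Lypd1. Lypd1 measured 376 there and 696 to 1285 in the others. Pou4f1 measured 125 in mouse 6 and 109 in mouse 8, where it was lowest, and Runx1 measured 204 in mouse 6 within a range of 156 to 292. Ngfr, above background in 7 mice, measured 45.3 in mouse 6 and 93.0 to 154 in the others. Of markers linked to the type II neurons, Th was above background in no mouse and Gata3, which other cochlear cells also express, measured 1964 in mouse 6 within a range of 1381 to 2089. Genes of other peripheral neurons were mostly below background, with 1 of 11 measured genes detected, namely Npy at 82.8 ± 11.3 (SD, n = 8). Dbh and Phox2a of sympathetic neurons, Chat and Slc18a3 of cholinergic neurons, and Scn10a and Trpv1 of nociceptors were above background in no mouse.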

How the data were processed

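Signals are MAS5 intensities on a linear scale, deposited by the authors for each probe set (the method is named in the submitters' processing notes, its version not given in the sources used here). RNA was amplified and labelled with the Ovation system, per the labels' protocols. The 2% trimmed mean of every array was 500.0.

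Of 45101 probe sets, the platform annotation tied 34958 to a single gene, 932 to several and 9211 to no gene. The brightest probe set stood for its gene (_x_at designs only where no other was present), and log2 was taken after values below 1 were raised to 1. Background came from 78 probe sets of 70 receptor genes. The 12 gene lists held 210 genes; 21 lacked a single-gene probe set and are not analysed here. The rule for naming took the 4 brightest and the most variable detected gene of each list, the 10 genes most like the mean of the genes described, and the 2 nearest of each; some of these were left out for room. Other list genes, among them Kif5c, Mapt, Cdk5r2, Mog, Th, Calb1, Pou4f1, Ngfr, Ntrk2 and Ntrk3, were picked after their values were seen. The genes described, the lists and the attention to mice 1, 4 and 6 were chosen with earlier results of these data known. Exact tests ran over all 40320 pairings of the mice and were tested on simulated data. Each mouse had 1 array, so differences between mice include assay error, and the number of arrays limits precision. Statistics used scipy 1.17.1, numpy 2.4.6 and pandas 2.3.3 under Python 3.11.15, and plots matplotlib 3.10.9.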

Additional observations from a re-analysis of the deposited data

Results flagged for a closer look

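Samples far from the others were looked for in the brightest probe set of each of the 10 genes, on the log2 scale, by the gap of the highest or lowest mouse to its neighbour as a share of the range. Dixon's 95% critical value for 8 samples was the limit, which chance exceeds in about 5% of groups. Nefl in mouse 6 (signal 1741, share 0.59), Nefm in mouse 6 (333, share 0.59), Nefh in mouse 6 (1497, share 0.65) and Ina in mouse 6 (235, share 0.60) exceeded it at the low end. These are 4 genes of 1 mouse that rose and fell with each other over the mice, so they do not count as separate observations. Prph in mouse 3 (11.6, share 0.53) exceeded it as well, at a signal below the background threshold of that array.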

How the results depend on the processing

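The values were recomputed with quantile normalization, with arrays scaled to the same median, with log2 of the signal plus 32, with the mean of all detected probe sets, with detection in at least 4 of 8 mice, with no filter, and without each mouse in turn; the planned background of olfactory and vomeronasal receptors alone was the one used. Of 180 values of single genes 171 moved by less than a set limit and 9 by more, all of them SDs. For an SD the limit was its approximate error. For a deviation in mouse 6 it was the gene's whole SD over mice, a wide limit that few deviations could exceed. The mouse 6 deviation of Map1b went from 0.30 to 0.13 with the mean of all detected probe sets and stayed within it. Without mouse 6 the SD was 0.37 for Ina, 0.38 for Map1a, 0.22 for Nefh, 0.28 for Nefl, 0.36 for Nefm and 0.34 for Stmn2. The SD of Stmn3 was 0.25 without mouse 1 and, with the mean of all probe sets, 0.23, and that of Map1b was then 0.13. With a mouse left out, the median SD of the detected ones among the 10 genes described ranged from 0.32 (without mouse 6) to 0.59. After subtraction of the neuronal profile this median ranged from 0.18 (without mouse 6) to 0.27. The count of genes lowest in mouse 6 was 8 under each of the 6 alternatives run for it. By Spearman's rho in place of Pearson's r, probe sets agreed in 143 genes in place of 390, and in 1 of the 5 genes described in place of 3; the cause was not tested. Pairs of genes passing the adjusted test numbered 0 under every alternative run, but with 7 mice no p can be below 1.98e-04, so the runs without a mouse could hardly pass. In detection, 9 genes passed with the 90th or 99th percentile and, in an alternative added after seeing the data, with olfactory receptors without the vomeronasal ones, and 10 when 4 mice sufficed. No paired analysis was possible because the samples form 1 group.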

Other observations

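Genes of the axon initial segment and of the node of Ranvier, where the axonal membrane is anchored to the cytoskeleton, were detected for 9 of 12 measured members. Of the 9, 4 were lowest in mouse 6 (12.3% of all detected genes). The ankyrin gene Ank2 measured 4779 in mouse 6 and 5861 to 7887 in the others. The spectrin gene Sptan1 was highest in mouse 1 at 4183 and ran from 2088 to 3060.0 elsewhere, with mouse 6 at 2114. The spectrin gene Sptbn1, which many cell types express, measured 8429.9 ± 446 (SD, n = 8), and the adhesion protein gene Cntn1 2378 ± 261 (SD, n = 8). Their median SD was 0.21 on the log2 scale. Mouse 6 was 0.38 below the mean of the 8 mice for Ank2, while Sptbn1 was at 0.02 there.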
